A study of Homo sapiens with 6 samples.

Results

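The genes of blood clotting and clot lysis that endothelium is known for were followed through an RNA-seq experiment on human umbilical vein endothelial cells (HUVECs), a primary culture. The 9 genes were chosen by symbol: VWF, THBD, PROCR, TFPI, TFPI2, F3, PLAT, PLAU and PLAUR. All 9 were found among the 45372 Ensembl genes listed per library, and all 9 passed the filter on low values (1 TPM or more in 3 or more libraries, where TPM is reads over gene length, with equal totals for all libraries). One group of 3 libraries came from wild-type HUVECs given a synthetic miR-409-3p mimic at 50 nM with a lipid reagent, and the other group of 3 from the same cells given a non-specific control RNA at 50 nM. RNA was taken at 48 h from cells grown in endothelial growth medium. The labels number the libraries of each group as biological replicates and the design text says that 4 technical replicates were pooled for each RNA sample, but nothing says that the 3 cultures came from separate donors, so the p-values measure the spread between these libraries. Every title carries the words Non Treated, in mimic and control libraries alike, with no further explanation.

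Endothelium keeps blood fluid by holding clotting inhibitors on its surface, and it releases the adhesive and lytic proteins that act once a vessel is cut. Clotting starts when tissue factor (F3) meets factor VIIa, and tissue factor pathway inhibitor (TFPI) stops that complex. Thrombomodulin (THBD) turns thrombin into an activator of protein C, and the endothelial protein C receptor (PROCR) binds protein C. Von Willebrand factor (VWF) tethers platelets, and tissue-type and urokinase-type plasminogen activators (PLAT and PLAU) start the breakdown of fibrin.

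The microRNA supplied is shown because its seed guides the pairing with transcripts. The mature sequence (RefSeq, GRCh38.p14, chr14:101065346-101065367, plus strand) has its seed, bases 2 to 8, in capitals.

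hsa-miR-409-3p: gAAUGUUGcucggugaaccccu

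The longest annotated 3′ UTR of each gene (GENCODE 29, GRCh38) was searched for AACATT, the 6 bases that pair with bases 2 to 7 of the microRNA. Matches were found in 3 of the 9 genes, 4 in all, and none was the full 8mer CAACATTA. PROCR held a match to all 7 seed bases. TFPI held a 6-base match followed by A and a plain 6-base match, and F3 held a plain 6-base match. The sites are printed on the strand of the transcript with the paired bases, and the following A where it counts, in capitals.

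PROCR, chr20:35177186-35177209, plus strand: caatcaaaataCAACATTcaatac

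TFPI, chr2:187466907-187466930, minus strand: ttatagcaatgtAACATTAattct

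TFPI, chr2:187464673-187464696, minus strand: aggcccttgtgaAACATTtcctgt

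F3, chr1:94529525-94529548, minus strand: taagtggcattaAACATTtgagag

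A match is a string of letters and not a shown site of binding. VWF, THBD, TFPI2, PLAT, PLAU and PLAUR held 0 copies of AACATT in the 3′ UTR searched.

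Tissue factor was the 1 gene of the 9 with separate groups: its lowest mimic value lay above its highest control value, while the other 8 overlapped. No member passed the test across all genes. By limma on log2(TPM + 1) with Benjamini-Hochberg adjustment over 13680 tested genes, 0 of the 9 rose and 0 fell at an adjusted p under 0.05, where 0.431% of all tested genes passed (0.132% higher and 0.3% lower). F3 alone had an unadjusted p under 0.05, as did 10.7% of all tested genes (3.05% higher and 7.64% lower). The groups did not overlap for 1 of the 9, against 15.7% of all tested genes (5.16% higher and 10.5% lower in mimic libraries). The median log2 difference of the 9 genes, mimic minus control, was 0.01, beside -0.02 for all tested genes.

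The levels spanned a 266-fold range between genes on the TPM scale, which is per length. VWF was the most abundant, at a mean of 919 TPM over the 6 libraries, followed by PROCR at 463, TFPI at 177, TFPI2 at 153, PLAU at 51.4, PLAUR at 51.3, PLAT at 33.9, THBD at 17.0 and F3 at 3.45 TPM. TFPI lay above TFPI2 within each of the 6 libraries, although their ranges overlapped. PLAU and PLAUR could not be ordered, since PLAU was the higher in 4 libraries and PLAUR in the other two. Every other pair of neighbours in this order had ranges that did not meet. The plot of levels by library shows this order.

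**Figure D1:**
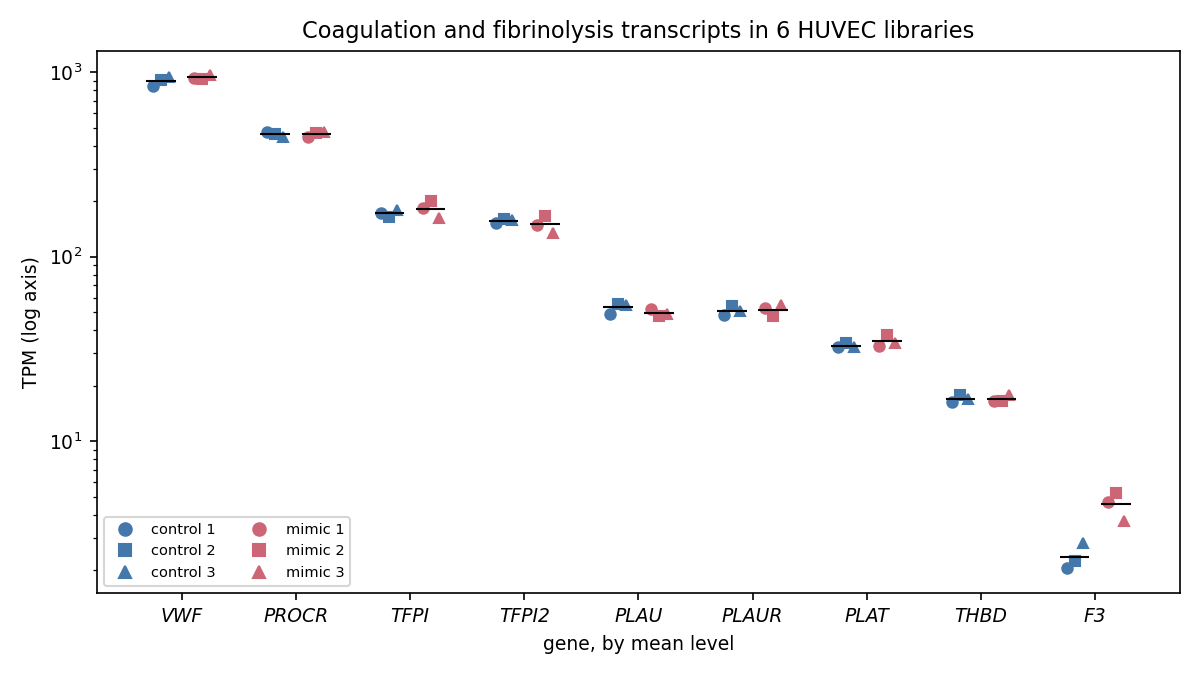
Level of each gene in each library, in TPM on a log axis, with control libraries in blue, mimic libraries in red and a bar at each group mean (n = 3). The groups lie apart for F3 (2.05 to 2.80 TPM against 3.67 to 5.26 TPM) and overlap for the other 8 genes.

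Tissue factor is the membrane receptor that starts clotting, and resting endothelium is known for keeping it very low. F3 (ENSG00000117525) lies on the minus strand of chromosome 1 at 94529225 to 94541800. It measured 2.05, 2.25 and 2.80 TPM in control libraries 1 to 3. In mimic libraries 1 to 3 it measured 4.68, 5.26 and 3.67 TPM. The lowest mimic library thus lay above the highest control library, and mimic library 3 was the nearest to the controls. The means were 2.37 ± 0.389 and 4.54 ± 0.806 TPM (SD, n = 3 each), 1.92 times the control level. The difference was 0.71 on the log2(TPM + 1) scale (SE 0.15, 95% interval 0.38 to 1.05), with an unadjusted p of 9.83e-04 and a limma Benjamini-Hochberg adjusted p of 0.0868. The interval lay above 0, and the result did not pass after adjustment over all genes. Of the 13680 tested genes, 74 had a larger positive difference, and F3 stood at place 155 by unadjusted p.

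F3 rests on few reads. TPM keeps no read count, so reads were estimated from the depth of each library, itself estimated from low genes. With the annotated exon length of 2875 bases, the F3 values gave 48.8, 52.8 and 69.7 reads in control and 109.6, 134.5 and 79.7 reads in mimic libraries. The length was then rescaled by 1.0038, the factor that brought all 6 values closest to whole (within 0.0033 of a read). This gave an estimated 49, 53 and 70 reads in control libraries and 110, 135 and 80 reads in mimic libraries, 172 against 325 in total. Exact 95% Poisson intervals ran from 36.3 to 64.8 for the lowest control library and from 54.6 to 88.4 for the highest. For the mimic libraries they ran from 63.4 to 99.6 for the lowest and from 113 to 160 for the highest. The interval of mimic library 3 overlapped those of control libraries 1, 2 and 3. These reads are not scaled for depth, estimated at 29.8 M for mimic library 3 and 34.8 M for control library 3. The intervals cover counting error only and leave out the spread between libraries. PCR copies among the reads, which were not assessed, would make the intervals too narrow.

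The adjusted p of F3 depended on how the table was handled, while the direction did not. It stayed higher in mimic libraries under all 15 other settings in which it could be fitted, from 0.37 with a pseudocount of 5 to 0.91 with a pseudocount of 0.1. The adjusted p ran from 0.0318 to 0.309 over these settings. It passed in 1 of them, when each library's trend on transcript GC content was removed (0.74, limma adjusted p = 0.0318), a setting chosen after the data were seen. With the replicate number as a block the adjusted p was 0.211, and with no filter on low genes it was 0.309. F3 does not reach a filter of 5 TPM in 3 libraries and was not tested there.

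**Figure D2:**
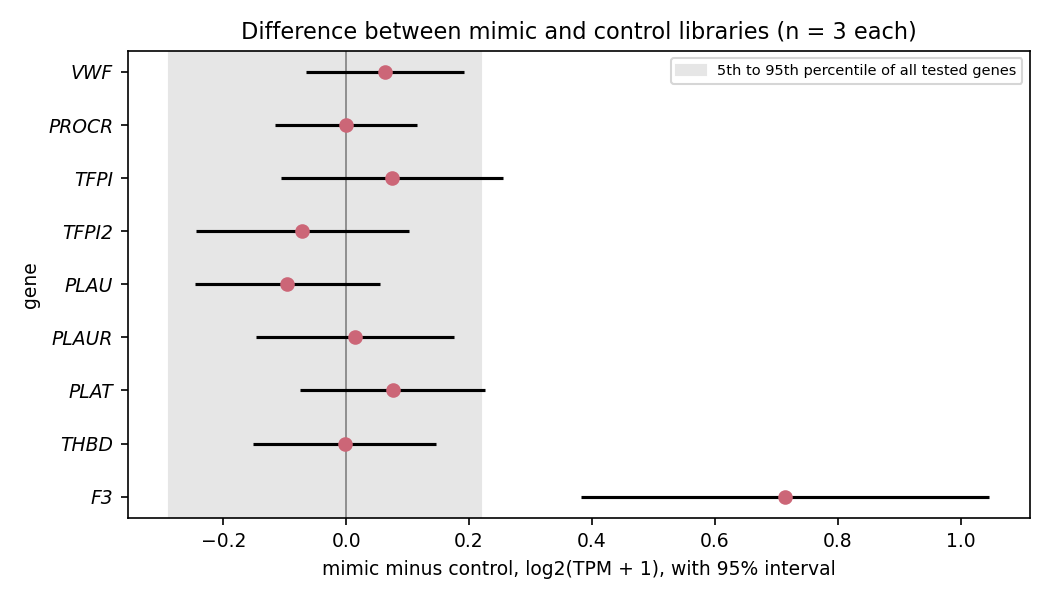
Difference between mimic and control libraries for each gene on the log2(TPM + 1) scale (points, with 95% intervals from limma) over the span from the 5th to the 95th percentile of all tested genes (grey). The interval of F3, 0.38 to 1.05, lies to the right of the grey band, and the intervals of the other 8 genes include 0.

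The promoter of F3 is shown because F3 is the 1 gene of the 9 with separate groups. Groups were also separate, in either direction, for 15.7% of all tested genes. AP-1, SP1 and EGR1 are among the factors known to act at the F3 promoter. The window covers 250 bases before the transcription start and 50 after it (RefSeq, GRCh38.p14, chr1:94541710-94542009, minus strand). Capitals mark, from the left, 2 AP-1 motifs (TGANTCA), 1 SP1 motif (GGGGCGGGG) and 1 EGR1 motif (GCGGGGGCG or GCGTGGGCG), searched on both strands.

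F3 promoter: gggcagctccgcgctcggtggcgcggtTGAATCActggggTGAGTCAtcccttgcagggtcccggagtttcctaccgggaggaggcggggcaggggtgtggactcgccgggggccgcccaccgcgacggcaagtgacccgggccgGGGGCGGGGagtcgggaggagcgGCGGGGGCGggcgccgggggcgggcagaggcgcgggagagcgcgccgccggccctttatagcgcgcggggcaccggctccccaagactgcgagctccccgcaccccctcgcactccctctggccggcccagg

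The AP-1 motifs of F3 begin at -223 and -210 from the start, the SP1 motif at -105 and the EGR1 motif at -82. Of 35116 promoters of this length, 7.71% held the AP-1 motif, 15.7% the SP1 motif and 5.77% the EGR1 motif. The same table held 7 windows for 6 of the 9 genes. VWF, THBD and PLAT were not among them. TFPI2 and PLAUR each held an EGR1 motif (beginning at -118 and -90) and an AP-1 motif (at -87 and -186), and their levels overlapped between the groups. The KLF motif CCACCC, present in 34.3% of all promoters, and an NF-kB motif (GGGNNTTCC, 6.58%) were found in the window of TFPI2 among these genes. Only these exact letters were searched, so an NF-kB site with other letters, in the F3 window or elsewhere, would have been missed. These matches describe letters only.

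TFPI, the inhibitor of the tissue factor complex, was an abundant transcript and did not pass. TFPI (ENSG00000003436, minus strand of chromosome 2, 187464230 to 187565760) measured 173, 164 and 179 TPM in control libraries and 183, 200 and 162 TPM in mimic libraries. The mimic libraries held both the highest and the lowest value. The group means were 172 ± 7.63 and 182 ± 19.3 TPM (SD, n = 3 each), and the difference in log2 was 0.07 (95% interval -0.11 to 0.26, limma adjusted p = 0.869). Its 3′ UTR of 2706 bases held the seed matches printed above at bases 18 and 2252.

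TFPI2, a related Kunitz-type inhibitor that acts on plasmin and other proteases of the matrix, measured 151, 161 and 159 TPM in control libraries and 148, 166 and 135 TPM in mimic libraries. As with TFPI, mimic library 2 was the highest and mimic library 3 the lowest of all 6. In log2 the difference was -0.07 (95% interval -0.24 to 0.10, limma adjusted p = 0.872). TFPI2 (ENSG00000105825) lies on the minus strand of chromosome 7 at 93885396 to 93890991.

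This swing between mimic libraries 2 and 3 was compared with base composition. Across 13601 tested genes with a transcript sequence, the deviation of a library from the 6-library mean changed by -0.08 log2 units per 10 points of GC in mimic library 2 and by 0.07 in mimic library 3, and by -0.03 to 0.02 in the other four. The transcripts of TFPI2, TFPI and F3 had the lowest GC content of the 9, at 39.8%, 41.5% and 43.7%. Mimic library 2 exceeded mimic library 3 by 0.30 log2 units for TFPI2, 0.31 for TFPI, 0.42 for F3 and 0.14 for PLAT (45.6% GC), and lay below it for the other 5 genes, which had a higher GC content. Across the 13601 genes, deviation and GC content had an r of -0.32 in mimic library 2 and 0.32 in mimic library 3. Among the 5 genes the differences did not follow GC content in order, with -0.20 for PLAUR (55.7% GC) and -0.06 for VWF (58.5% GC). The part of GC content in the levels of the 9 genes was not tested gene by gene. The libraries with the steepest slopes were both mimic libraries and had opposite slopes.

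**Figure D3:**
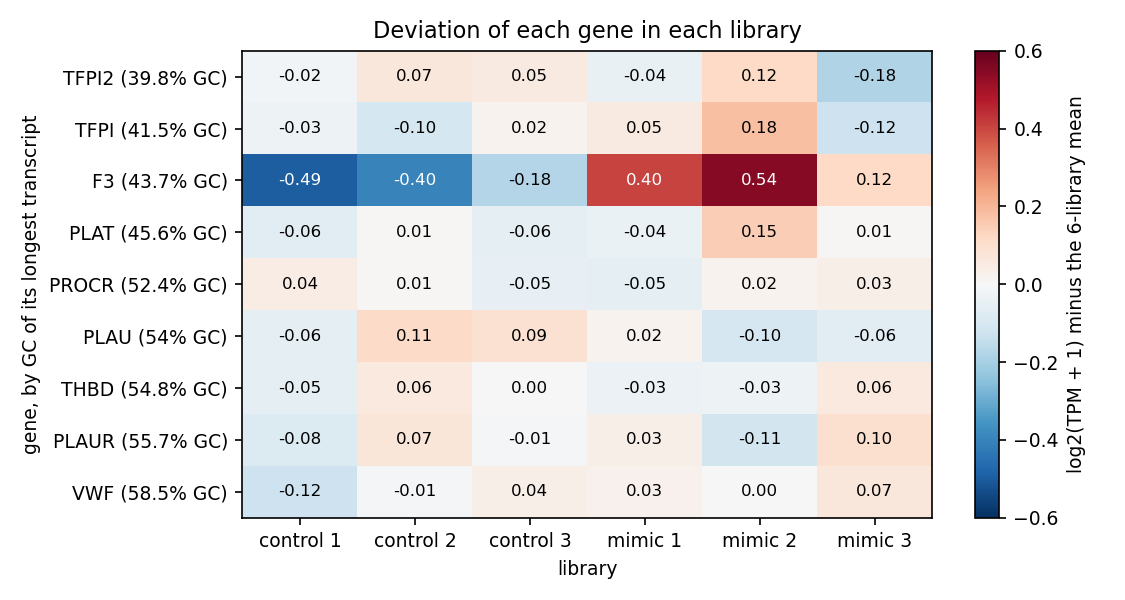
Deviation of each gene in each library from its mean over the 6 libraries, in log2(TPM + 1), with genes ordered by the GC content of their longest transcript. F3 runs from -0.49 to -0.18 in control libraries and from 0.12 to 0.54 in mimic libraries, and TFPI and TFPI2 are highest in mimic 2 and lowest in mimic 3.

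The ratio of F3 to TFPI set the initiator against its inhibitor within each library. For each 1000 TPM of TFPI there were 11.9, 13.8 and 15.6 TPM of F3 in control libraries. In mimic libraries there were 25.6, 26.3 and 22.7 TPM. All mimic libraries lay above all control libraries. The means were 13.8 ± 1.89 and 24.9 ± 1.89 (SD, n = 3 each), a log2 difference of 0.86. The exact two-sided permutation p was 0.1, the smallest that 20 relabellings allow, and 0.2 after Benjamini-Hochberg adjustment over the 4 ratios computed, of which 2 are given here. Since TFPI overlapped between the groups, this ratio carries the F3 values again and is no separate support for them.

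Thrombomodulin is the thrombin receptor that turns clotting off, and its gene is a known target of KLF2 in endothelium. KLF2 rose in these libraries, from 23.9 ± 1.35 to 51.5 ± 8.48 TPM (SD, n = 3 each; limma adjusted p = 0.00619). The call was lost without control library 1 (limma adjusted p = 0.0568) and with no filter on low genes (0.0907). Whether KLF2 bears on THBD here was not tested. THBD (ENSG00000178726, minus strand of chromosome 20, 23045633 to 23049741) measured 16.3, 17.7 and 16.9 TPM in control libraries and 16.5, 16.6 and 17.7 TPM in mimic libraries. These values interleave, and the means were 17.0 ± 0.694 and 17.0 ± 0.670 TPM (SD, n = 3 each), a ratio of 0.998. The log2 difference was -0.0024 with a 95% interval of -0.15 to 0.15 (limma adjusted p = 0.997). THBD was read at an estimated 550 to 606 reads per library.

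The ratio of THBD to F3, the receptor that limits thrombin against the starter of clotting, was 7.97, 7.86 and 6.04 in control libraries. It was 3.53, 3.15 and 4.83 in mimic libraries. The groups did not overlap (7.29 ± 1.08 and 3.84 ± 0.879, SD, n = 3 each; log2 difference -0.94, exact two-sided permutation p = 0.1, the smallest possible, adjusted 0.2 over 4 ratios). As THBD differed by 0.182% between the group means, this ratio too carries the F3 values again.

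**Figure D4:**
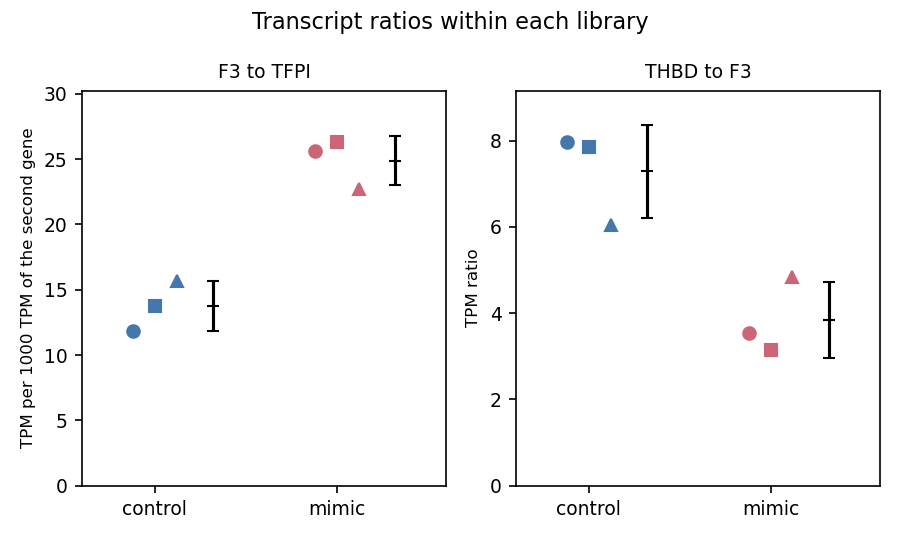
Ratio of 2 transcripts within each library, as TPM of F3 per 1000 TPM of TFPI (left) or as the plain TPM ratio of THBD to F3 (right), for control (blue) and mimic (red) libraries, with circles, squares and triangles for libraries 1 to 3 and black bars for mean ± SD. Both ratios hold F3 and separate the groups, with F3 to TFPI higher and THBD to F3 lower in mimic libraries.

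The protein C receptor gene held the longest seed match of the 9, and its groups overlapped. PROCR (ENSG00000101000, plus strand of chromosome 20, 35172073 to 35216240) measured 477, 464 and 447 TPM in control libraries and 446, 469 and 473 TPM in mimic libraries. The groups covered nearly the same range. Mimic minus control was -7.88e-04 in log2 (95% interval -0.12 to 0.11, limma adjusted p = 0.999). Its sign turned in 6 of 16 other settings, always within 0.026 of 0, as did that of THBD in 6 of 16, within 0.045. The annotated antisense gene AL356652.1 shares 218 bases of exon with PROCR. It was at 2.82 to 6.56 TPM, and the use of strand in counting is not stated.

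VWF, the multimeric ligand that captures platelets and that endothelial cells store in Weibel-Palade bodies, was the most abundant member. VWF (ENSG00000110799, minus strand of chromosome 12, 5948874 to 6124770) measured 843, 912 and 941 TPM in control libraries and 936, 919 and 961 TPM in mimic libraries. Control library 1 was the lowest and the other 5 libraries lay within 912 to 961 TPM. The groups differed by 0.06 in log2 (95% interval -0.06 to 0.19, limma adjusted p = 0.820), and without control library 1 it was 0.02. A pseudogene of VWF on chromosome 22, VWFP1, copies part of the gene, and how reads that fit both were counted is not given. No listed gene was matched to the symbol VWFP1.

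The 3 fibrinolytic genes all overlapped between the groups. PLAT, which encodes tissue-type plasminogen activator (ENSG00000104368, minus strand of chromosome 8, 42175233 to 42207724), measured 32.3, 34.0 and 32.5 TPM in control libraries and 32.9, 37.6 and 34.0 TPM in mimic libraries. Mimic library 2 stood highest and the other 5 lay within 32.3 to 34.0 TPM. The groups differed by 0.08 in log2 (95% interval -0.07 to 0.23, limma adjusted p = 0.816).

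PLAU, which encodes urokinase (ENSG00000122861, plus strand of chromosome 10, 73909177 to 73917497), had the largest negative difference of the 9. It measured 49.2, 55.6 and 54.7 TPM in control libraries and 52.1, 47.7 and 49.0 TPM in mimic libraries, with control library 1 inside the mimic range. The log2 difference was -0.10 (95% interval -0.25 to 0.05, limma adjusted p = 0.719), and it ran from -0.15 to -0.06 over 16 other settings. C10orf55, annotated on the other strand, shares 916 bases of exon with PLAU and was at 0.322 to 0.781 TPM.

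PLAUR, the receptor that holds urokinase at the cell surface (ENSG00000011422, minus strand of chromosome 19, 43646095 to 43670547), measured 48.2, 53.9 and 50.8 TPM in control libraries and 52.4, 47.4 and 54.8 TPM in mimic libraries. Both the highest and the lowest value came from mimic libraries. In log2 the groups differed by 0.01 (95% interval -0.15 to 0.18, limma adjusted p = 0.981).

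The other genes of clotting and lysis were counted from 7 lists of 86 genes, of which 58 were tested, 28 stayed under the filter and 12 were listed at 0 in all 6 libraries. Outside the list of transcription factors, 0 of 43 tested genes rose and 0 fell by limma with Benjamini-Hochberg adjustment, and at an unadjusted p under 0.05 1 was higher and 1 lower, beside 3.05% and 7.64% of all tested genes. Their median log2 difference was 0.02. The genes that circulate as liver products were mostly at or near 0: among 19 coagulation factors and thrombin receptors 14 stayed under the filter, and F2, F7, F9, F11 and the 3 fibrinogen genes FGA, FGB and FGG were listed at 0 in all 6 libraries. Of the 5 tested, 0 passed. F2R, the main thrombin receptor of endothelium, was at 669 ± 15.7 TPM in control and 683 ± 37.0 TPM in mimic libraries (SD, n = 3 each), F2RL1 at 99.3 ± 6.70 and 91.3 ± 4.14, and F2RL2 at 9.77 ± 0.896 and 10.2 ± 0.337.

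Of 11 anticoagulant genes 5 were tested and 0 passed, with a median of -0.0027. ANXA5, which covers phospholipid surfaces, was at 937 ± 26.4 and 934 ± 16.5 TPM, GAS6 at 21.2 ± 2.14 and 21.1 ± 0.744, and PROS1, the cofactor of activated protein C, at 15.3 ± 0.740 and 16.7 ± 2.24 (control and mimic, SD, n = 3 each). Of 13 genes of the plasminogen system 7 were tested and 0 passed. Among the most abundant were the plasminogen-binding pair S100A10 (1321 ± 89.3 and 1333 ± 57.6 TPM) and ANXA2 (1211 ± 21.8 and 1220 ± 22.1 TPM), and ENO1, a glycolytic enzyme that also binds plasminogen, at 785 ± 39.5 and 797 ± 31.5 TPM. Of 3 vitamin K cycle genes 0 passed, with GGCX, VKORC1 and VKORC1L1 between -0.10 and 0.14 in log2 difference.

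Among 18 genes of Weibel-Palade bodies and VWF handling, 16 were tested and 0 passed. The groups did not overlap for EDN1, the endothelin-1 gene, at 1058 ± 72.4 and 959 ± 20.2 TPM (log2 difference -0.14, limma adjusted p = 0.460). Of the 16 genes, 1 was thus separate and lower and 0 separate and higher, beside 10.5% and 5.16% of all tested genes. MMRN1, a carrier of factor V, was at 1085 ± 48.6 and 1175 ± 104 TPM, and CD63, a granule membrane protein, at 758 ± 25.6 and 768 ± 17.0 TPM. Of 7 genes of platelet inhibition 0 passed, and 1 was separate and higher, where 5.16% of all tested genes were. PTGS2, which makes the precursor of prostacyclin, had the largest difference of any clotting-related gene on the lists other than the transcription factors, with no overlap between groups: 14.0, 17.7 and 17.7 TPM in control libraries and 22.0, 20.7 and 23.0 TPM in mimic libraries (log2 difference 0.40, SE 0.10, limma adjusted p = 0.143). NT5E was at 143 ± 7.79 and 144 ± 6.18 TPM and NOS3 at 65.2 ± 2.80 and 65.9 ± 3.49.

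Of 15 transcription factors reported to act at these genes, 2 rose, 0 fell and 13 did not pass, where 0.132% of all tested genes rose and 0.3% fell. KLF2 and EGR1 were the 2, and EGR1 rose from 10.4 ± 1.16 to 20.8 ± 2.93 TPM (SD, n = 3 each; limma adjusted p = 0.0143). The count was 1 without control library 2 or mimic library 1, 0 without control library 1, 1 with an untrended prior and 0 with no filter on low genes. Whether they bear on the levels of F3 or PTGS2 was not tested. The groups did not overlap for 5 of the 15 factors that were higher and 1 that was lower, beside 5.16% and 10.5% of all tested genes. The list was chosen with earlier results of these data known, so neither count is a test against these shares. KLF6, JUN and ERG, the most abundant of the list, had log2 differences of 0.13, 0.08 and 0.06.

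**Figure D5:**
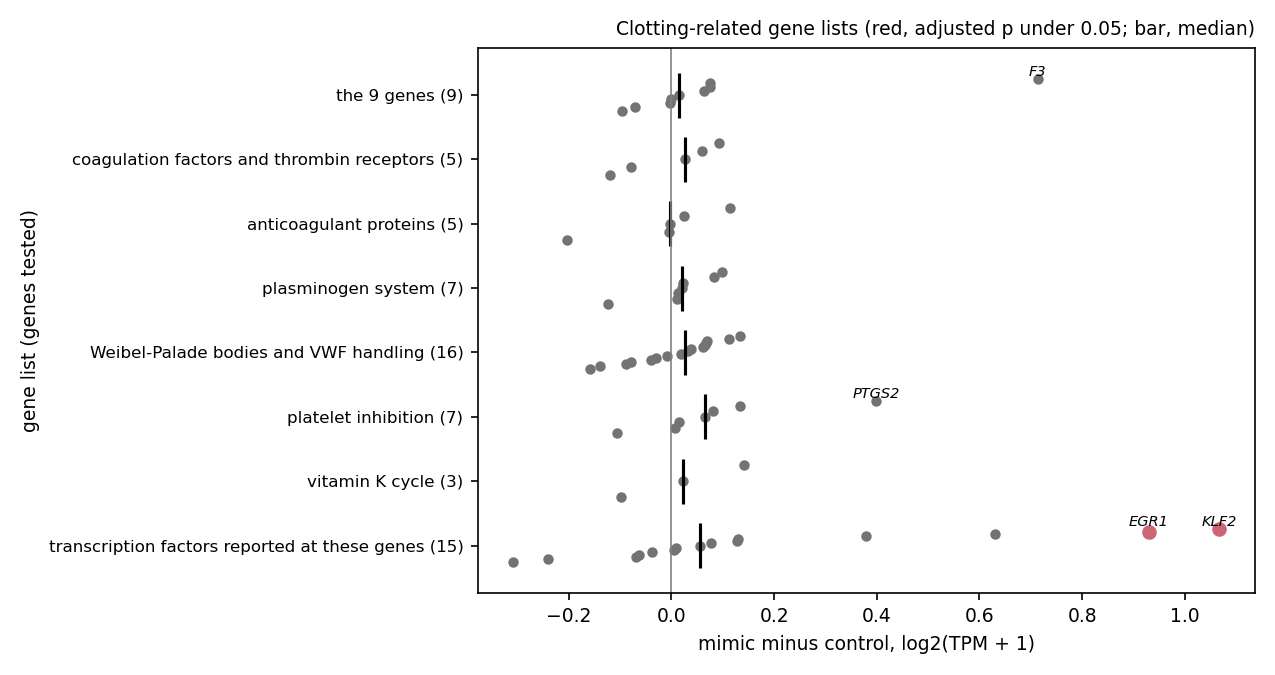
Log2(TPM + 1) difference, mimic minus control, of each tested gene by list, with a bar at each list's median and red points for limma adjusted p under 0.05. KLF2 and EGR1 are the red points, and F3 (0.71) and PTGS2 (0.40) stand to the right of their lists without passing.

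The genes whose levels followed those of a member most closely over the 6 libraries are given as a description, since 6 points let many genes correlate. On the log2(TPM + 1) scale F3, TFPI and TFPI2 had the widest ranges of the 9. Among 10551 genes with a mean of at least 5 TPM, DYRK1A (Pearson r = 0.998), CXCL2 (0.995) and OGA (0.991) were closest to F3, and 187 genes had an r over 0.9. For TFPI the closest were SUMO2 (0.998), NCAL1 (0.997) and a gene listed only as ENSG00000278133 (0.994), with 268 over 0.9, and for TFPI2 they were RIMOC1 (0.995), PREPL (0.993) and MAT2B (0.992), with 337 over 0.9. The 6 libraries differ in group and in the base composition trend described above, and what the correlations reflect was not tested.

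The libraries held an estimated 29.8 to 35.8 M assigned reads each. The markers matched the endothelial label: 10 of 10 endothelial markers were tested, 0 passed, and they summed to 5344 to 5571 TPM in control and 5511 to 5740 TPM in mimic libraries. Smooth muscle markers summed to 88.4 to 98.0 TPM in control and 81.8 to 92.2 TPM in mimic libraries. The highest single value among them was 89.2 TPM, so 1 gene made up most of the sum in that library. Fibroblast markers summed to 12.9 to 16.1 and 13.0 to 16.4 TPM, and the sums of both marker lists overlapped between the groups. Their part in the F3 difference was not tested. Epithelial markers summed to at most 2.66 TPM, which was the value of 1 marker alone. Platelet and megakaryocyte markers summed to 0.101 to 0.492 TPM in control and 0.292 to 0.669 TPM in mimic libraries, with PPBP and GP9 listed at 0 throughout. Leukocyte markers summed to at most 0.522 TPM in any library, with PTPRC, ITGAM and CD3E at 0, and hepatocyte markers to at most 0.0862 TPM. Of 5 smooth muscle, 6 fibroblast and 4 epithelial markers, 2, 3 and 1 were tested and 0 passed. BTG2, the gene of the series title, was at 80.0 ± 1.05 TPM in control and 51.6 ± 5.22 TPM in mimic libraries (SD, n = 3 each). Its log2 difference was -0.63 (95% interval -0.80 to -0.45, limma adjusted p = 0.0143). Fewer cells of a type and less RNA per cell cannot be told apart in such bulk samples.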

How the data were processed

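For each library the authors deposited a table of TPM by Ensembl ID, per the file headers. Per the submitters' processing notes the genome was hg38 (GRCh38.p13). The aligner, counter, gene annotation and strand setting are not given in the sources used for these values. Symbols were found for 45102 of 45372 IDs, and positions came from GENCODE 29 (GRCh38). Genes at 1 TPM or more in 3 or more libraries were fitted with limma 3.58.1 (R 4.3.3, trended prior, group as the term) on log2(TPM + 1), which understates the change of low genes, with Benjamini-Hochberg adjustment over 13680 genes and a threshold of 0.05. Depth was estimated from low genes, since TPM times exon length was a whole multiple of 1 step (within 0.02) for 74.4% to 75.0% of them. In data simulated for this comparison (13680 genes), limma called 22.0%, 69.5% and 87.0% of 1.25-, 1.5- and 2-fold changes, and 5.9% of its calls were false. The simulated errors were independent between genes, with no GC trend, and the rates pool all levels. They are therefore not rates for F3 or for the real libraries. The 9 genes and all lists were chosen with earlier results of these data known. Named genes were the 9, BTG2, the 3 most abundant tested genes of each list with any that passed, and the 3 closest in pattern to each of 3 members; EDN1 among the separated genes, PTGS2 as the largest listed difference and the genes listed at 0 were singled out after their values were seen. A gene of the plasminogen list and the 2 ratios that used it are not reported here, though the ratios stay in the adjustment. Alternatives changed the pseudocount, filter, scaling, prior, block, GC trend and libraries. Python 3.11.15, scipy 1.17.1 and matplotlib 3.10.9 were used.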

Additional observations from a re-analysis of the deposited data

How the results depend on the processing

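Over all genes, the 18 higher and 41 lower calls changed with the settings. Dropping the filter on low genes left 6 and 5, raising it to 5 TPM gave 36 and 79, an untrended prior left 10 and 10, the robust prior gave 37 and 82, the replicate block left 9 and 5, and removal of the GC trend gave 93 and 152. Higher calls were 33 with median-of-ratios scaling and 34 with quantile normalization. Leaving out 1 library gave 6 to 22 higher and 6 to 27 lower. The GC setting was chosen after the data were seen. It gave 1 member past the threshold, F3 (0.74), and 1 transcription factor that fell, and no other setting gave a member call. The transcription factor rises were 0 with no filter, 1 with an untrended prior and 0 to 3 without 1 library. The causes were not tested.

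Differences near 0 changed sign. THBD measured 0.017 with median-of-ratios scaling, 0.045 with quantile normalization and 0.019 with the GC trend removed, and PROCR 0.019, 0.0031 and 0.020. Without 1 library THBD ran from -0.033 to 0.026, PROCR from -0.026 to 0.026, TFPI2 from -0.15 to 0.0020, and PLAUR from -0.030 to 0.072. F3, TFPI, VWF, PLAT and PLAU kept their direction in every setting in which they were fitted. The scalings moved the median of all genes from -0.0166 to at most 0.0035.

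Same-numbered libraries did not deviate together (r = 0.03, -0.09 and -0.11 across genes), and differently numbered ones gave r of -0.03 to 0.11. The deviations sum to 0 within each group of 3 and hold the GC trends, so this check cannot exclude pairs. The labels' numbers were not taken as pairs. The replicate block changed no member call and 0 members passed with it. Depth limits F3 most, at an estimated 49 to 135 reads per library.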
